A study of Mus musculus with 6 samples.

Results

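The subunits of the respiratory chain and of ATP synthase were taken from the gene table by symbol: protein-coding genes whose names mark them as subunits of complex I, succinate dehydrogenase, complex III, cytochrome c oxidase or ATP synthase. The rule found 97 genes among 32759, of which 84 lie in nuclear chromosomes and 13 in mitochondrial DNA. The nuclear genes divide into 35 of complex I, 4 of complex II, 9 of complex III, 19 of complex IV and 17 of ATP synthase (complex V). Mitochondrial DNA supplies 7 subunits of complex I, 1 of complex III, 3 of complex IV and 2 of complex V. Ndufa4 is counted with complex IV, where its protein works despite its name, and Cox5b-ps, which carries a pseudogene symbol, was kept because the table lists it with a protein-coding transcript.

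RNA came from the white fat of mice fed a high-fat diet (HFD). The 3 THBru samples came from mice that also received tetrahydroberberrubine (THBru), a small molecule related to the plant alkaloid berberine, at 50 mg/kg/day, and the 3 HFD samples from mice without it. The labels do not say whether the HFD mice received a vehicle. They name neither the fat depot nor the strain, age or sex of the mice, nor whether each library is 1 animal, so p-values reflect the spread among these libraries, which may be technical. The study's title names thermogenesis through PGC1α in fat as the process addressed. The subunits examined here build the machinery that such thermogenesis would draw on.

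Complexes I, III and IV pass electrons from NADH to oxygen and pump protons across the inner mitochondrial membrane, complex II feeds electrons from succinate without pumping, and ATP synthase lets the protons return while it makes ATP. Their subunits come from both genomes: nuclear genes are transcribed one by one, often with the factors NRF1 and GABPA (an ETS protein) at their promoters, while the mitochondrial genes are cut from long transcripts that start near the control region. PGC1α is a coactivator known to raise both. Brown and beige fat carry a dense chain, whose current is uncoupled by UCP1, whereas white adipocytes carry a sparse one.

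Of the 97 genes, 93 passed the filter on low values (a mean of at least 0.5 FPKM over the 6 libraries): all 13 mitochondrial and 80 nuclear. In edgeR's quasi-likelihood test none of the 93 passed the threshold of an adjusted p of 0.05, and DESeq2 called 1, Ndufb3 (lower, adjusted p = 0.0183). Nuclear subunits showed a median log2 fold change of -0.09, THBru over HFD, and the mitochondrially encoded ones 0.31, against 0.08 over all 16140 genes tested. Per library, summed mitochondrial FPKM relative to summed nuclear subunit FPKM stood higher in all 3 THBru libraries than in the 3 HFD libraries, whereas the groups overlapped within complexes I and IV and for the ratio of median counts. FPKM is fragments per kilobase of transcript per 1e6 fragments, calculated by the authors, and CPM below is counts per 1e6 counts after TMM scaling unless the total count is named. TMM (trimmed mean of M-values) scales libraries on the assumption that most genes do not differ.

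The THBru libraries carried transcripts of organs other than fat, which bears on every value below. A seminal vesicle list took 43.0%, 0.0800% and 0.0910% of counts in THBru 1 to 3, against 0.0536% to 0.0639% in HFD. An epididymal list took 5.76% in THBru 3 and at most 0.0147% in each other library, and a kidney list 0.129% in THBru 2 and at most 0.0117% elsewhere. A general epithelium list took 0.124%, 0.0439% and 0.200% in THBru 1 to 3, against 0.000849% to 0.0119% in HFD. These lists are short. All genes over 8-fold above the HFD mean and over 5 CPM of the total count in a THBru library were also summed. Picked for that height, they took 52.0%, 3.35% and 24.8% in THBru 1 to 3, against 0.740% to 0.794% in HFD. FPKM values below are not TMM scaled, so such transcripts lower the FPKM of other genes, most in THBru 1. Per total count, the summed mature adipocyte markers were 0.142, 0.841 and 0.0914 times the HFD mean in THBru 1 to 3. After TMM scaling they were 0.238, 0.746 and 0.0866 times it. THBru 2 is thus the THBru library nearest to HFD in these markers. Among all genes tested, edgeR called 19 higher and none lower, with 2248 and 1442 at an unadjusted p under 0.05, and DESeq2 called 1670 higher and 1103 lower. In bulk tissue, fewer cells of a type and less RNA per cell cannot be told apart, and nuclear and mitochondrial subunits are expressed in every one of these organs. Results are therefore also given for THBru 2 alone and without it.

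Promoter windows of the nuclear subunits were searched for known motifs. RefSeq windows of 250 bases upstream of the start (GRCm38.p6) were found for 65 of the 80 tested nuclear subunits, 81.2%. The motif of NRF1, searched on both strands with any base at its variable position, was in 13 of the 65 (20.0%), against 4.23% of the 27025 windows of all genes. The ETS motif CCGGAAG was in 12 (18.5%), against 7.83%, and either of them in 22 (33.8%), against 11.3%. TATAAA was in 6 (9.23%), against 14.3%, and the ESRRA motif TCAAGGTCA in 1, that of Atp5g3, against 0.422%. The windows were also richer in CG dinucleotides, with a median of 14 against 6. The NRF1 and ETS motifs hold CG themselves, and their shares were not compared with windows of like CG content or of expressed genes only. The first 3 windows below show these motifs in capitals, in genes described further on. The RefSeq start lies 0 to 37 bases inside the gene bounds of the deposited table in 6 of the 7 windows printed and 1305 bases inside them in that of Atp5g2.
Cox6a1, chr5:115348959-115349208, minus strand: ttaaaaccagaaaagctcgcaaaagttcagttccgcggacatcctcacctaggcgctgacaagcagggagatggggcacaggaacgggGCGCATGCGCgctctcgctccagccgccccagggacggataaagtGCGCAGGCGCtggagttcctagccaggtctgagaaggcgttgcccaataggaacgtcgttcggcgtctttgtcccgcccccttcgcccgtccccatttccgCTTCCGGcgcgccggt
Cox6b1, chr7:30626115-30626364, minus strand: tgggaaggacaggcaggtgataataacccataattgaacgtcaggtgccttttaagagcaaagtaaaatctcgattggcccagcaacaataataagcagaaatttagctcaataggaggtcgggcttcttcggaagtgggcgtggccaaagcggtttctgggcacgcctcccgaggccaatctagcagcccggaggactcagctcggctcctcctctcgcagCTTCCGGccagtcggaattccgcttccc
Atp5g2, chr15:102671048-102671297, minus strand: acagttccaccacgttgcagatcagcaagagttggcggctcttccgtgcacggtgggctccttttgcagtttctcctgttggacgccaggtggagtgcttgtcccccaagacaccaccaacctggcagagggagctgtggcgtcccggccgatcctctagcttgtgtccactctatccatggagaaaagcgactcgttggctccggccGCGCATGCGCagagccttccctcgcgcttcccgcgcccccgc

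The next 4 belong to genes on which the results turn: Ndufb3 and Cox8a with low values in THBru, Ndufb11 with high ones, and Cox8b, the tissue-restricted partner of Cox8a. None of the 4 holds any of the motifs searched, and CG dinucleotides are in capitals instead. The window of Ndufb3 has 19, that of Ndufb11 14, that of Cox8a 11 and that of Cox8b 1, fewer than in its widely expressed partner.
Ndufb3, chr1:58586147-58586396, plus strand: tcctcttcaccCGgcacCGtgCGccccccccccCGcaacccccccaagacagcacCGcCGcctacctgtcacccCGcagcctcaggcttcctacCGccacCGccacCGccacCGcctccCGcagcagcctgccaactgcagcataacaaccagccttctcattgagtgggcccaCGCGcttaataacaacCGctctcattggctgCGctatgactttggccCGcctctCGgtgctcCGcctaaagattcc
Ndufb11, chrX:20617620-20617869, minus strand: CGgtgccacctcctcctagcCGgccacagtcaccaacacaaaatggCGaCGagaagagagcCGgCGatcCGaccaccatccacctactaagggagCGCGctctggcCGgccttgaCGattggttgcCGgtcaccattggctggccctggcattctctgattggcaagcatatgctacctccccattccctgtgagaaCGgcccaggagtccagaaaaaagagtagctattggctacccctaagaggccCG
Cox8a, chr19:7217617-7217866, minus strand: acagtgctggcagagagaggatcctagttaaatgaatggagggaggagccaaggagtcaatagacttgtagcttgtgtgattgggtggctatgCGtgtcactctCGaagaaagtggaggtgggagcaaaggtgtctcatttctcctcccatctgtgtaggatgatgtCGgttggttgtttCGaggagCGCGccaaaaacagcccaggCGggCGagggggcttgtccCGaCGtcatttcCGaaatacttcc
Cox8b, chr7:140900447-140900696, minus strand: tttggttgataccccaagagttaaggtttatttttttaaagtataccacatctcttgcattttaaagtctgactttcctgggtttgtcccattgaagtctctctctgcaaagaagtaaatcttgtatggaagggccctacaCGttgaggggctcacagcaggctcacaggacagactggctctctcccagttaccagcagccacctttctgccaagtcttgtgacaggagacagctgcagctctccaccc

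No nuclear subunit passed the test between THBru and HFD. Of the 80 tested, 30 had a positive and 50 a negative log2 fold change, ranging from -0.96 (Ndufb3) to 1.06 (Atp5g1), whereas 54.4% of all genes tested had a positive and 45.6% a negative one. The count called was thus 0 in each direction, where edgeR called 0.118% of all genes higher and 0.0% lower, and the smallest adjusted p was 0.181. Before adjustment, 2 higher (Ndufb11 and Cox7a2l) and 1 lower (Ndufb3) had a p under 0.05, while 13.9% and 8.93% of all genes reached that mark. DESeq2 called 1 of the 80, Ndufb3 as lower (adjusted p = 0.0183), where it called 10.3% of all genes higher and 6.83% lower. The 3 THBru values lay above all 3 HFD values for 3 of the 80 (Cox7a2l, Ndufb11, Atp5mpl) and below them for 1 (Ndufb3), compared with 16.7% and 15.1% of all genes.

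**Figure D1:**
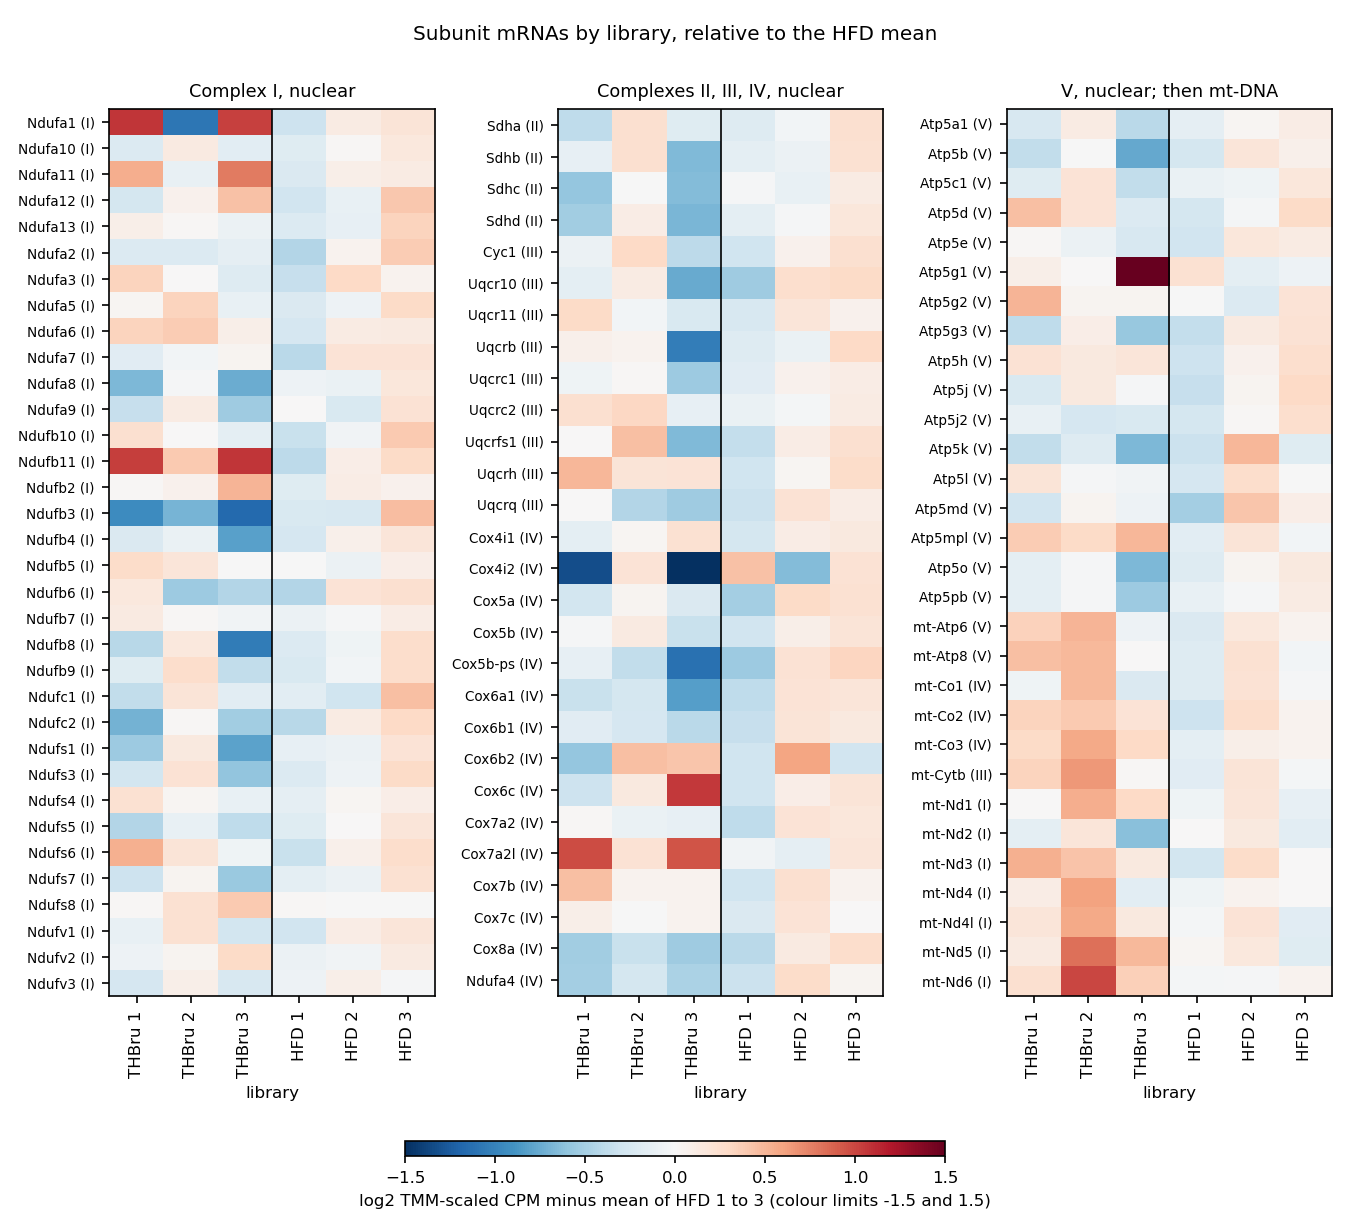
Each row is 1 of 92 tested subunit genes (complex in brackets) and each column 1 library, THBru 1 to 3 left of HFD 1 to 3; colour gives log2 TMM-scaled CPM minus the mean of the 3 HFD libraries. Most nuclear rows are pale, THBru 1 and 3 vary more than THBru 2, and most of the mitochondrial rows at the lower right are reddest in THBru 2. Values beyond the colour limits, such as Atp5g1 and Cox4i2 in THBru 3, are drawn at the limit.

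The summed nuclear subunits took 0.249%, 0.560% and 0.392% of all counts in THBru 1 to 3, against 0.416%, 0.469% and 0.533% in HFD 1 to 3. THBru 1 was the lowest of the 6 and THBru 2 the highest, so the groups overlapped. After TMM scaling the sums were 0.882, 1.05 and 0.789 times the HFD mean in THBru 1 to 3. The profile across subunits also differed between the THBru libraries. Between 2 HFD libraries, the log2 ratios of the 80 genes had an SD of 0.224 to 0.311, and between THBru 2 and an HFD library 0.256 to 0.324. Between THBru 1 or 3 and an HFD library it was 0.415 to 0.615, the libraries in which the seminal vesicle and epididymal lists were high and the adipocyte list low. The part of those tissues in the result was not tested.

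With THBru 2 alone against the 3 HFD libraries, 57 of 80 nuclear subunits had a positive log2 fold change and 23 a negative one, while all genes divided into 50.3% and 49.4%. The median was 0.06, beside 0.00 over all genes. Without THBru 2 the median was -0.21, beside 0.08 over all genes. When libraries were instead scaled to the mature adipocyte markers, the median of all genes moved to 2.34 and that of nuclear subunits turned positive, at 2.10, with 24 of 80 called higher, where 49.4% of all genes were called higher and 0.161% lower. Relative to the median of all genes, nuclear subunits stood at -0.17 with TMM and -0.24 with adipocyte scaling.

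Complex I, the NADH dehydrogenase and entry point for most electrons, had 15 nuclear subunits with a positive and 20 with a negative log2 fold change and a median of -0.07. Ndufb3 and Ndufb11, accessory subunits of its membrane arm, stood farthest apart. Ndufb3 (ENSMUSG00000026032, chr1:58586384-58595964, plus strand) had 8.32, 9.86 and 7.16 CPM in THBru 1 to 3, against 13.7, 13.6 and 22.1 CPM in HFD 1 to 3. Every THBru library lay below every HFD library, with means of 8.45 ± 1.35 CPM in THBru and 16.5 ± 4.86 CPM in HFD (SD, n = 3 each). Its log2 fold change was -0.96 (SE 0.29, edgeR adjusted p = 0.181), with -0.72 for THBru 2 alone and -1.09 without it, and adipocyte scaling turned it positive, at 1.20.

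Ndufb11 (ENSMUSG00000031059, chrX:20615326-20617619, minus strand) went the other way, with 42.3, 27.0 and 43.2 CPM in THBru 1 to 3, against 15.7, 22.0 and 25.1 CPM in HFD 1 to 3. The groups did not overlap, although THBru 2 was close to HFD 3. Means were 37.5 ± 9.12 CPM in THBru and 20.9 ± 4.81 CPM in HFD (SD, n = 3 each), a log2 fold change of 0.84 (SE 0.29, edgeR adjusted p = 0.189). It was 0.38 for THBru 2 alone and 1.03 without it. These accessory subunits of 1 complex thus had values of opposite sign, neither of them past the threshold in edgeR, while DESeq2 called Ndufb3.

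Ndufa1, a small membrane subunit encoded on the X chromosome, had 7.79, 1.74 and 7.52 CPM in THBru 1 to 3, against 2.97, 4.01 and 4.23 CPM in HFD 1 to 3. THBru 2 was the lowest and THBru 1 and 3 the highest of the 6 libraries, and the log2 fold change was 0.60 (SE 0.61, adjusted p = 0.555) over all libraries but -1.08 with THBru 2 alone. Ndufa11, a membrane subunit that contacts complex III in supercomplexes, had 15.4, 9.81 and 18.2 CPM in THBru, against 9.14, 11.3 and 11.5 CPM in HFD (log2 fold change 0.44, SE 0.30, adjusted p = 0.384). Here THBru 2 lay among the HFD values. Ndufa8, an accessory subunit facing the intermembrane space, had 25.7, 40.4 and 24.5 CPM in THBru, against 38.9, 38.3 and 46.2 CPM in HFD (-0.45, SE 0.25, adjusted p = 0.317). Its THBru 1 and 3 values lay below HFD and THBru 2 within it.

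Per length, the lowest nuclear complex I mRNA was Ndufb2, an accessory subunit, with 1.24 ± 0.514 FPKM in THBru and 1.14 ± 0.101 FPKM in HFD (SD, n = 3 each). The length implied by count over FPKM was 5850 bases for Ndufb2, far longer than a small subunit's coding sequence, so its FPKM understates its level. Its log2 fold change was 0.21, within its spread. Among core subunits of complex I, which carry the flavin and the iron-sulfur clusters, the log2 fold change was -0.35 for Ndufs1 (SE 0.29), -0.26 for Ndufs7 (SE 0.23), -0.05 for Ndufv1 (SE 0.22), 0.09 for Ndufv2 (SE 0.18) and 0.22 for Ndufs8 (SE 0.18). All of these lay between the values of Ndufb3 and Ndufb11.

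Complex II, succinate dehydrogenase, is the enzyme shared with the citric acid cycle and is wholly nuclear. All 4 subunits had a negative log2 fold change (median -0.23), none past the threshold, and all 4 were positive with THBru 2 alone (median 0.18). Sdhc, a membrane anchor, had 69.0, 103 and 65.7 CPM in THBru 1 to 3, against 102, 96.1 and 113 CPM in HFD 1 to 3, so THBru 1 and 3 were low and THBru 2 stood among HFD. The other anchor, Sdhd, had the same pattern, with 63.8, 98.8 and 57.1 CPM in THBru, against 82.6, 90.5 and 103 CPM in HFD. The flavoprotein Sdha had 73.9 ± 35.6 FPKM in THBru and 82.5 ± 13.9 FPKM in HFD (SD, n = 3 each), and the iron-sulfur subunit Sdhb 21.5 ± 10.8 FPKM in THBru and 25.5 ± 4.15 FPKM in HFD, the highest and lowest of the complex. Their log2 fold changes were -0.09 (SE 0.28) and -0.14 (SE 0.27). Without THBru 2 the median of the complex was -0.49.

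Complex III, which passes electrons from coenzyme Q to cytochrome c, had 3 nuclear subunits with a positive and 6 with a negative log2 fold change, and a median of -0.05. The core protein Uqcrc2, highest per length, had 49.3 ± 17.1 FPKM in THBru and 48.5 ± 4.47 FPKM in HFD (SD, n = 3 each, log2 fold change 0.15, SE 0.20). Uqcr11, lowest per length, had 7.84 ± 1.61 FPKM in THBru and 8.74 ± 1.05 FPKM in HFD (0.01, SE 0.30). The catalytic subunits Cyc1 (cytochrome c1) and Uqcrfs1 (the Rieske protein) had log2 fold changes of -0.05 (SE 0.25) and -0.02 (SE 0.33). In both, THBru 3 was the lowest of the 6 libraries and THBru 2 the highest, with 66.3 against 41.2 CPM for Cyc1 and 56.4 against 26.0 CPM for Uqcrfs1. Every HFD value lay between these.

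Complex IV, cytochrome c oxidase, reduces oxygen, and several of its nuclear subunits exist as isoforms for different tissues. Of its 15 tested nuclear genes, 6 had a positive and 9 a negative log2 fold change (median -0.09). Cox7a2l (ENSMUSG00000024248, chr17:83501918-83517330, minus strand), a relative of the Cox7a subunits that joins complexes III and IV into supercomplexes, had 125, 73.6 and 122 CPM in THBru 1 to 3, against 61.2, 57.8 and 72.1 CPM in HFD 1 to 3. The groups did not overlap, with THBru 2 just above HFD 3, and means were 107 ± 29.0 CPM in THBru and 63.7 ± 7.46 CPM in HFD (SD, n = 3 each). The log2 fold change was 0.75 (SE 0.26, adjusted p = 0.192), 0.23 with THBru 2 alone, and 0.96 without THBru 2, where it passed the threshold (adjusted p = 0.0423, with 5.06% of all genes called higher and 4.55% lower). The allele of Cox7a2l differs between common laboratory strains in mice, and the labels name no strain.

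Several ubiquitous subunits of complex IV had negative values without passing the test. Cox8a had 31.0, 35.3 and 30.8 CPM in THBru 1 to 3, against 33.7, 48.8 and 53.3 CPM in HFD 1 to 3 (log2 fold change -0.48, SE 0.22, adjusted p = 0.252). Cox6a1 had 32.3, 34.1 and 23.1 CPM in THBru, against 31.3, 47.0 and 46.3 CPM in HFD (-0.48, SE 0.26, adjusted p = 0.294). Ndufa4 had 17.0, 20.3 and 17.5 CPM in THBru, against 19.5, 29.4 and 25.0 CPM in HFD (-0.43, SE 0.22, adjusted p = 0.281). In each, HFD 1 was the lowest HFD library and lay within the THBru range. Cox4i1, the main regulatory subunit and the highest nuclear complex IV mRNA per length, had 42.9, 91.6 and 98.6 FPKM in THBru, against 68.3, 82.7 and 90.8 FPKM in HFD (0.03, SE 0.21). In CPM, Cox4i1 had 109, 123 and 142 in THBru, against 101, 130 and 134 in HFD. Its groups overlapped throughout. The other ubiquitous partners of tissue isoforms also overlapped, with log2 fold changes of -0.29 for Cox6b1 (SE 0.21), -0.09 for Cox7a2 (SE 0.23) and 0.18 for Cox7b (SE 0.24).

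**Figure D2:**
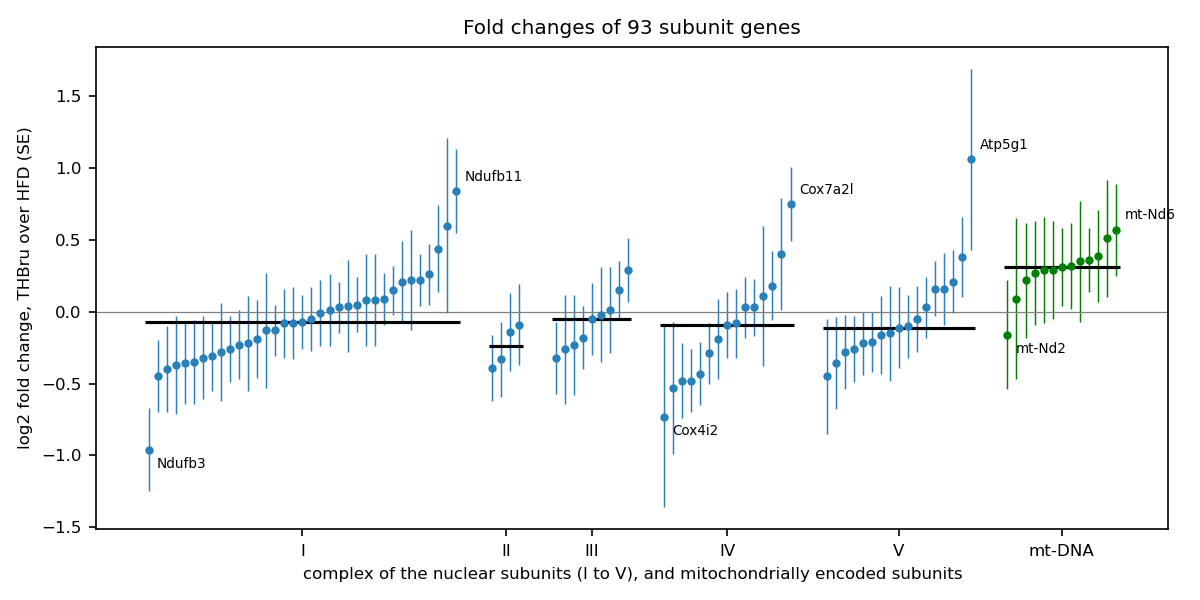
Points are log2 fold changes, THBru over HFD, of the 93 tested subunits with their standard errors, sorted within each complex; black lines are medians, and mitochondrially encoded subunits (green) are at the right. The nuclear medians lie between -0.23 (complex II) and -0.05 (complex III), and the mitochondrial median at 0.31.

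Set against the nuclear subunit median of its own library, which needs no scaling between libraries, 74 of 80 nuclear genes stood within 0.5 log2 units of the same position in both groups. The groups did not overlap on this measure for 3 nuclear genes that were higher in THBru (Ndufa6, Atp5mpl and Ndufb11) and 10 that were lower, among them Ndufb3, Cox6a1, Cox8a, Ndufa4, Cox6b1 and Atp5b. The shares of all genes without overlap were 12.4% higher and 14.6% lower. Cox8a stood 0.42, 0.49 and 0.46 log2 units above the median in THBru 1 to 3, against 0.78, 0.93 and 1.05 in HFD 1 to 3, and Ndufa4 stood at -0.45, -0.31 and -0.35 in THBru, against 0.00, 0.20 and -0.05 in HFD. These nuclear counts are close to or under the background. Of the 13 mitochondrial genes, 4 were higher without overlap on this measure (mt-Co2, mt-Co3, mt-Nd3 and mt-Nd6) and none lower.

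**Figure D3:**
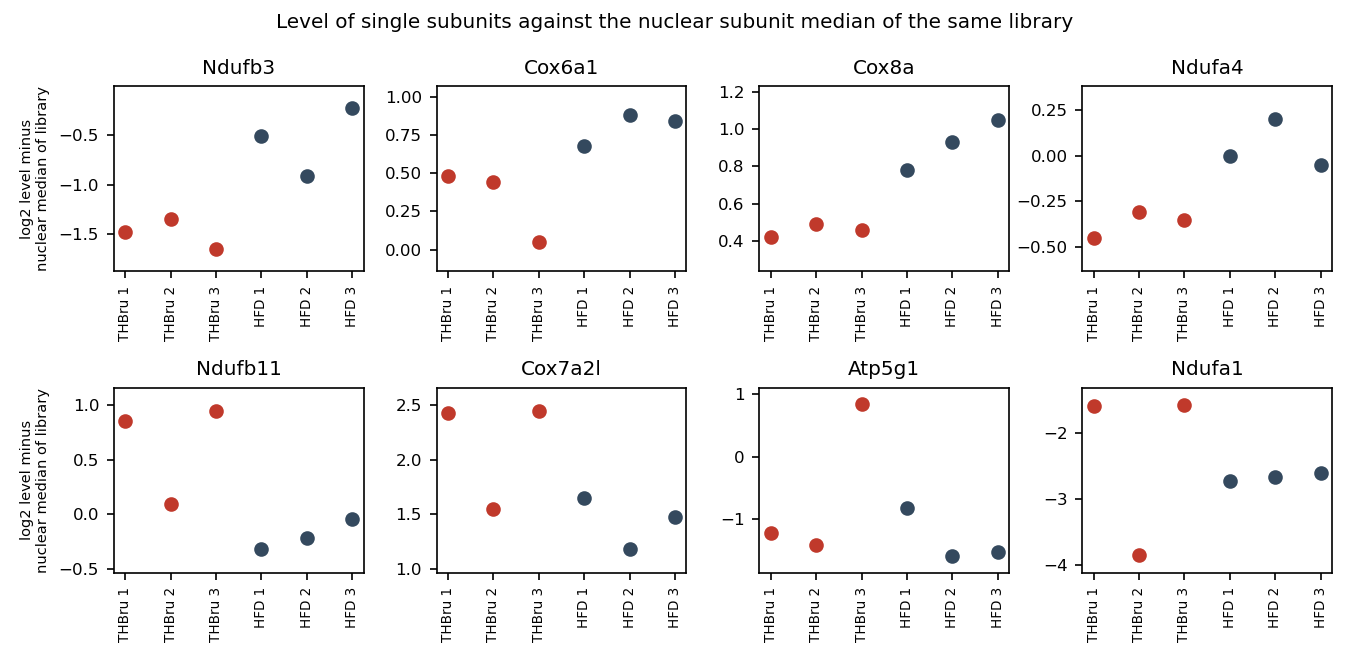
Vertical axes give the log2 TMM-scaled CPM of 8 subunits minus the median of the tested nuclear subunits in the same library, THBru (red) left of HFD (dark). Ndufb3, Cox6a1, Cox8a and Ndufa4 lie lower in all 3 THBru libraries than in HFD, Ndufb11 higher, while Atp5g1 is high in THBru 3 and Ndufa1 low in THBru 2.

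The muscle and brown fat isoforms of complex IV were at the edge of detection and did not enter the main test. Cox6a2, the heart and skeletal muscle form of Cox6a1, had no count in any THBru library, against 41, 28 and 23 counts in HFD 1 to 3. Cox8b, the heart, muscle and brown fat form of Cox8a, likewise had none in THBru, against 14, 10 and 13 counts in HFD. A count of 0 in each THBru library allows up to 0.0416, 0.0439 and 0.0446 CPM of the total count. With counts pooled over each group and a floor of 3 counts for THBru (0.0144 CPM of the total count), Cox6a2 was at least 28.9-fold lower in THBru. Cox8b was at least 11.6-fold lower. These limits cover counting error only, not the spread between libraries. With no filter on low values the edgeR adjusted p was 0.185 for Cox6a2 and 0.239 for Cox8b. Even in HFD, Cox6a2 made up 0.625% to 1.59% of the FPKM of the pair with Cox6a1, and Cox8b 0.488% to 0.805% of that with Cox8a.

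Cox7a1, the form of Cox7a2 in heart, muscle and brown fat, had 0, 18 and 9 counts in THBru 1 to 3, against 14, 0 and 26 counts in HFD 1 to 3, with no order between the groups (adjusted p = 0.896 with no filter). Of the isoforms known from brown fat, Cox7a1 thus overlapped between the groups and Cox8b was at 0 in THBru. The brown and beige fat list, 12 genes, took 0.00255%, 0.0271% and 0.0143% of counts in THBru, against 0.00640% to 0.00778% in HFD, with unlike members. Slc27a2 gave 182 of the CPM (per total count) in THBru 2, the library with kidney transcripts, and Pank1 63.9, Prdm16 40.3 and Slc27a2 20.6 in THBru 3. Cpt1b went the other way, at 0.791, 6.86 and 2.23 CPM in THBru, against 13.1, 13.1 and 11.9 CPM in HFD, and Otop1 and Kcnk3 were also lower in each THBru library than in HFD. Ucp1, which defines brown adipocytes, had 16, 15 and 0 counts in THBru, against 31, 0 and 4 counts in HFD. A skeletal muscle list of 13 genes took 0.00391%, 0.00136% and 0.00164% in THBru, against 0.00248% to 0.00366% in HFD, with 5, 3 and 1 of its genes at 0 in THBru and 2, 4 and 3 in HFD. Acta1, skeletal muscle actin, had 2310, 457 and 163 counts in THBru, against 1842, 2156 and 1310 counts in HFD. Mb, myoglobin, went the other way, with 78, 65 and 270 counts in THBru, against 0, 5 and 16 counts in HFD. Per total count, 2 of the 13 genes were lower in every THBru library than in HFD, and 1 was higher. The part of muscle fibres in the isoform counts was not tested.

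Cox8c, a testis form, had 0, 0 and 24 counts in THBru 1 to 3 and none in HFD. With counts pooled in the same way it was at least 8.49-fold higher in THBru, resting on THBru 3 (edgeR adjusted p = 0.402 with no filter). In the same library Odf1 and Prm2, genes of sperm and spermatids, had 1014 and 940 counts, against 8 and 47 or fewer in THBru 1 and 2 and 9 and 16 or fewer in HFD. The part of sperm RNA in this count was not tested. Cox6b2, the testis form of Cox6b1, had 23, 84 and 75 counts in THBru, against 51, 80 and 49 in HFD (log2 fold change 0.11, SE 0.49). Cox4i2, a form of Cox4i1 known from lung and from low oxygen, had 0.790, 2.28 and 0.680 CPM in THBru, against 2.69, 1.26 and 2.30 CPM in HFD (-0.73, SE 0.63, adjusted p = 0.490). It was low in THBru 1 and 3, where endothelial markers were also low, at 0.0378% and 0.0321% of counts against 0.174% to 0.276% in HFD. The log2 fold change of Cox4i2 was 0.15 with THBru 2 alone, in which those markers took 0.320%. Within HFD, HFD 1 had the highest Cox4i2 and the lowest share of those markers, 0.174%. The part of endothelial cells in these values was not tested.

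**Figure D4:**
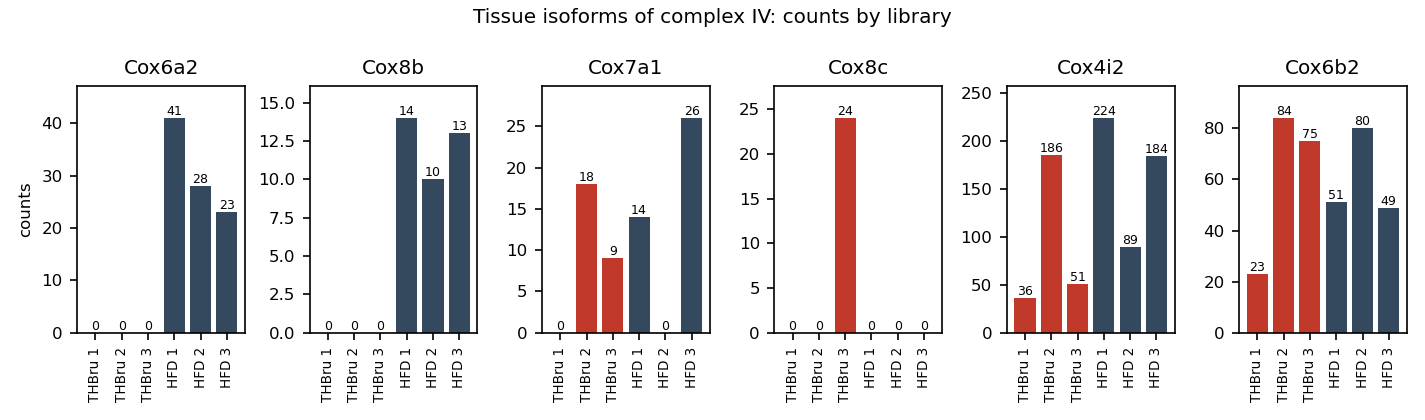
Bars are raw counts of 6 isoforms of complex IV subunits in each library, THBru (red) left of HFD (dark), each panel with its own axis from 0. Cox6a2 and Cox8b are at 0 in all 3 THBru libraries, Cox8c has counts in THBru 3, and Cox7a1, Cox4i2 and Cox6b2 overlap between the groups.

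Complex V, ATP synthase, had 6 nuclear subunits with a positive and 11 with a negative log2 fold change (median -0.11). The alpha and beta subunits of its head gave the most abundant nuclear mRNAs of the whole set per length. Atp5a1 had 93.3, 227 and 147 FPKM in THBru 1 to 3, against 172, 182 and 204 FPKM in HFD 1 to 3, and Atp5b averaged 137 ± 65.1 FPKM in THBru and 188 ± 24.8 FPKM in HFD (SD, n = 3 each). In CPM, Atp5a1 had 479, 615 and 429 in THBru, against 515, 578 and 612 in HFD. Atp5b had 597, 770 and 454 CPM in THBru, against 645, 875 and 818 CPM in HFD. Neither differed beyond its spread (log2 fold changes -0.16, SE 0.27, and -0.36, SE 0.32). As a share of all nuclear subunit counts, Atp5b took 15.2%, 16.4% and 12.9% in THBru, against 16.8%, 19.1% and 16.6% in HFD, so each THBru library was below each HFD library. Atp5md, a small subunit of the membrane part, was the lowest per length, at 2.42 ± 0.971 FPKM in THBru and 2.83 ± 0.784 FPKM in HFD. Atp5mpl, another small membrane-part subunit, had 6.01, 5.64 and 6.52 CPM in THBru, against 4.15, 5.30 and 4.48 CPM in HFD, without overlap (0.38, SE 0.28, adjusted p = 0.418).

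The proton-carrying ring of ATP synthase is built from 1 protein, subunit c, encoded by Atp5g1, Atp5g2 and Atp5g3, which differ in their import signals. Atp5g1 had 9.99, 9.49 and 40.0 CPM in THBru 1 to 3, against 11.0, 8.48 and 8.97 CPM in HFD 1 to 3. Its log2 fold change, the highest of all subunits at 1.06 (SE 0.63, adjusted p = 0.332), rests on THBru 3 and was 0.04 without that library. As a share of the FPKM of the 3 genes, Atp5g1 took 4.13%, 3.84% and 18.0% in THBru, against 5.32%, 3.59% and 3.32% in HFD. Atp5g2 took 52.3%, 36.9% and 40.7% in THBru, against 42.8%, 32.7% and 37.6% in HFD. Atp5g3, the largest in every library but THBru 1, took 43.6%, 59.3% and 41.3% in THBru, against 51.9%, 63.8% and 59.0% in HFD. Lengths implied by count over FPKM were 5096 bases for Atp5g1, 1732 for Atp5g2 and 2254 for Atp5g3, so these shares depend on the lengths used. In counts Atp5g3 was the largest in every library, with 2122 in THBru 1 against 1954 for Atp5g2. In THBru 3 Atp5g1 had 3000 counts, Atp5g2 2318 and Atp5g3 3065. Cox6c of complex IV also stood out in THBru 3, with 18.7, 25.6 and 48.5 CPM in THBru, against 18.9, 24.9 and 26.6 CPM in HFD. THBru 3 is the library with 5.76% epididymal transcripts, whose part in these values was not tested.

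The 13 mitochondrially encoded subunits had 12 positive and 1 negative log2 fold change, with a median of 0.31 and a range of -0.16 (mt-Nd2) to 0.57 (mt-Nd6). In edgeR none passed the threshold or had an unadjusted p under 0.05, and the smallest adjusted p was 0.311. DESeq2 also called none, with 3 higher at an unadjusted p under 0.05 and a smallest adjusted p of 0.0641. The THBru and HFD values did not overlap for mt-Co3 and mt-Nd6, both higher in THBru, where 16.7% of all genes had no overlap in that direction. These genes come from shared long transcripts, so they are not independent of each other. Nuclear copies of mitochondrial sequence can take or give reads of these genes, and poly(A) selection can favour mRNAs with longer tails.

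Complex I subunit mt-Nd6 (ENSMUSG00000064368, mitochondrial DNA, minus strand) had 679, 1151 and 741 CPM in THBru 1 to 3, against 563, 571 and 597 CPM in HFD 1 to 3. All THBru values lay above HFD, and THBru 2 was highest, with a log2 fold change of 0.57 (SE 0.32, adjusted p = 0.311), of 1.02 for THBru 2 alone and of 0.30 without it. It is the 1 subunit on the opposite strand, and because the strand setting of the counting is not given in the sources used here, reads of the overlapping heavy-strand transcript cannot be told apart. The complex IV subunit mt-Co3, which lies beside the catalytic core, had 1752, 2129 and 1760 CPM in THBru, against 1298, 1523 and 1487 CPM in HFD (0.39, SE 0.32, adjusted p = 0.474). The catalytic mt-Co1, the most abundant mRNA of the set per length, had 14943 ± 4016 CPM in THBru and 14061 ± 2016 CPM in HFD (SD, n = 3 each, 0.09, SE 0.56). Its groups overlapped.

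The remaining mitochondrial subunits lay close together. Those of complex I had log2 fold changes of 0.22 (mt-Nd4), 0.29 (mt-Nd1), 0.31 (mt-Nd4l), 0.36 (mt-Nd3) and 0.51 (mt-Nd5), and mt-Cytb, the complex III subunit that holds both quinone sites, 0.35. The copper-binding mt-Co2 of complex IV had 0.29, and mt-Atp6, part of the proton path of ATP synthase, 0.27 and its partner mt-Atp8 0.32. The exception in sign was mt-Nd2, with 1929, 2428 and 1379 CPM in THBru, against 2149.9, 2356 and 1917 CPM in HFD (-0.16, SE 0.38, adjusted p = 0.812).

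Shares within the mitochondrial pool do not depend on scaling. They have a common total, so a lower share of the largest, mt-Co1, raises the rest, and they are not independent results. Counts of mt-Nd2 made up 5.28%, 4.85% and 4.09% of the pool in THBru 1 to 3, against 6.89%, 6.07% and 5.73% in HFD 1 to 3, and those of mt-Co1 36.4%, 39.0% and 35.6% in THBru, against 39.1%, 41.7% and 41.2% in HFD. Both shares were lower throughout THBru than in HFD, without overlap. The share of mt-Cytb was higher, at 12.6%, 11.4% and 11.0% in THBru, against 10.4%, 10.7% and 10.7% in HFD, and so was that of mt-Nd6, at 1.86%, 2.30% and 2.20% in THBru, against 1.80%, 1.47% and 1.79% in HFD. The other 9 shares overlapped. No like measure was computed over all genes for comparison. Of FPKM, the mt-Nd6 share overlapped too, at 3.51%, 4.58% and 4.27% in THBru, against 3.59%, 2.91% and 3.53% in HFD, while the shares of mt-Nd2, mt-Co1 and mt-Cytb did not. The neighbours mt-Nd2 and mt-Nd1 come from the same transcript, and their FPKM ratio was 0.782, 0.678 and 0.456 in THBru, against 0.913, 0.843 and 0.853 in HFD.

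Summed, the mitochondrial subunits took 2.31%, 5.96% and 3.76% of all counts in THBru 1 to 3, against 3.37%, 3.96% and 3.61% in HFD 1 to 3, with THBru 1 the lowest and THBru 2 the highest. Dividing by the nuclear subunits of the same library gives a value that needs no scaling between libraries. The ratio of summed FPKM was 20.2, 23.2 and 20.2 in THBru, against 17.6, 18.1 and 14.4 in HFD, with means of 21.2 ± 1.72 in THBru and 16.7 ± 2.04 in HFD (SD, n = 3 each). No THBru library overlapped with HFD. The groups also did not overlap when mt-Co1 was left out (15.5, 17.2 and 15.5 in THBru, against 13.0, 13.1 and 10.4 in HFD) or when Atp5a1 and Atp5b were. They did overlap within complex I (22.4, 28.7 and 24.3 in THBru, against 22.6, 21.3 and 15.8 in HFD), within complex IV (35.4, 49.5 and 32.5 in THBru, against 35.1, 34.7 and 29.4 in HFD) and for the ratio of median counts. As a score over chosen genes the ratio carries no p, and 3 libraries against 3 could reach no exact permutation p below 0.1.

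**Figure D5:**
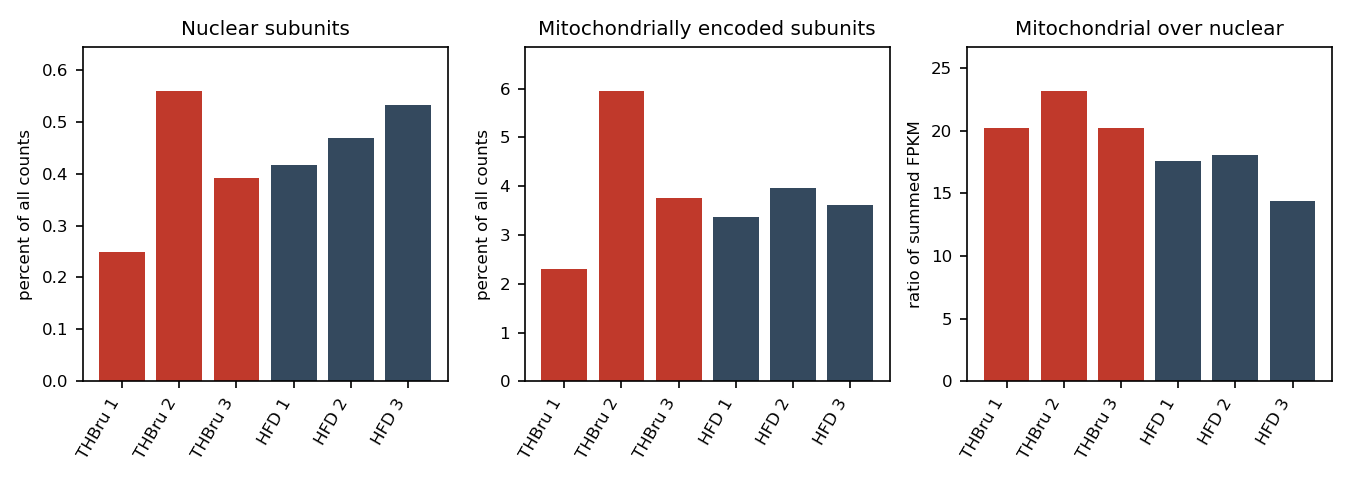
Bars give, per library, the percent of all counts in nuclear subunits (left) and in mitochondrially encoded subunits (middle), and the ratio of their summed FPKM (right), THBru (red) left of HFD (dark). The shares overlap between the groups, and the ratio is 20.2 or more in THBru and 18.1 or less in HFD.

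With THBru 2 alone, all 13 mitochondrial subunits had a positive log2 fold change, with a median of 0.56 and a range of 0.20 to 1.02, beside 0.00 over all genes. Without THBru 2 the median was 0.18, beside 0.08. Scaled to the adipocyte markers it was 2.47, beside 2.34 over all genes. In that setting 2 of 13 were called higher, where 49.4% of all genes were. THBru 2 was also the library with the highest kidney share and the highest Ppargc1a, the gene of PGC1α, at 2.04, 14.9 and 7.64 CPM in THBru 1 to 3, against 2.15, 3.49 and 1.84 CPM in HFD 1 to 3 (log2 fold change 1.71, SE 0.75, adjusted p = 0.236). The part of kidney RNA in the mitochondrial values was not tested.

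Of 104 tested genes that assemble, supply and serve the chain, edgeR called none. DESeq2 called Twnk higher and 6 lower (Tmem126b, Sdhaf2, Sdhaf4, Cmc2, Atpaf2 and Ucp2), where it called 10.3% of all genes higher and 6.83% lower. Without THBru 2, edgeR called none higher and 5 lower (Tmem126b, Cox19, Atpaf2, Coq3 and Etfa). In that setting 5.06% of all genes were called higher and 4.55% lower. These counts are close to or under the shares of all genes. With adipocyte scaling 42 were called higher and none lower, where 49.4% of all genes were called higher and 0.161% lower. Of 15 tested complex I assembly factors, 6 had a positive and 9 a negative log2 fold change (median -0.12), of 10 for complexes II and III 4 and 6 (-0.11), and of 23 for complex IV 11 and 12 (-0.01). Tmem126b, which helps build the membrane arm of complex I, had 15.3, 24.5 and 16.0 CPM in THBru 1 to 3, against 32.4, 32.5 and 32.3 CPM in HFD 1 to 3 (-0.80, SE 0.24, adjusted p = 0.179). Each THBru value lay below the narrow HFD range. Ndufaf4, another complex I assembly factor, had -0.35 (adjusted p = 0.340). Sdhaf2, which inserts flavin into Sdha, had 27.7, 31.0 and 27.3 CPM in THBru, against 41.2, 35.4 and 39.6 CPM in HFD (-0.44, SE 0.16, adjusted p = 0.203), and Sdhaf4 -0.78 (adjusted p = 0.234).

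Among complex IV assembly factors, Cmc2 had 2.61, 2.95 and 1.53 CPM in THBru, against 4.72, 5.84 and 5.51 CPM in HFD (-1.18, SE 0.38, adjusted p = 0.186). Cox17, the copper chaperone of the complex, went the other way, with 23.4, 14.4 and 15.6 CPM in THBru, against 9.45, 10.9 and 13.8 CPM in HFD (0.64, SE 0.29, adjusted p = 0.240). The groups overlapped for neither, and both were named for the smallest p-values of their list. Of the 23 tested factors of this complex, 1 was higher and 2 were lower without overlap, against 16.7% and 15.1% of all genes. For ATP synthase, the assembly factor Atpaf2 had 21.1, 33.5 and 18.5 CPM in THBru, against 50.2, 52.3 and 50.5 CPM in HFD (-1.07, SE 0.26), the smallest adjusted p of these lists at 0.161. Atpif1, the inhibitor that blocks the enzyme when it runs backwards, had 16.7, 13.4 and 20.0 CPM in THBru, against 13.4, 7.80 and 10.6 CPM in HFD (0.65, SE 0.29, adjusted p = 0.242). Atpaf2 was lower in all THBru libraries and Atpif1 at or above the highest HFD value.

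Of 27 genes that maintain and express mitochondrial DNA, 15 had a positive and 12 a negative log2 fold change (median 0.04). The replicative helicase Twnk had 29.7, 22.4 and 30.4 CPM in THBru, against 14.8, 18.0 and 18.8 CPM in HFD (0.68, SE 0.21, adjusted p = 0.183), and the polymerase accessory subunit Polg2 6.21, 7.68 and 5.04 CPM in THBru, against 3.79, 3.19 and 4.42 CPM in HFD (0.73, SE 0.32, adjusted p = 0.238). Neither overlapped between the groups, and both were named for the smallest p-values of their list. Of the 27 genes, 4 were higher and 0 lower without overlap, against 16.7% and 15.1% of all genes. The electron carriers and coenzyme Q genes had 4 positive and 12 negative values (median -0.40). With THBru 2 alone they had 8 and 8 (median 0.00), and without it the median was -0.60. The low median thus rests on THBru 1 and 3, the libraries low in adipocyte markers. The part of adipocyte content was not tested. Of these 16 genes, 5 were lower in every THBru library than in HFD and 1 was higher, against 15.1% and 16.7% of all genes. Cytochrome c, Cycs, had 48.6, 82.9 and 65.4 CPM in THBru, against 83.9, 119 and 109 CPM in HFD (-0.66, SE 0.26, adjusted p = 0.212), each THBru library below HFD. Etfa, which brings in electrons from fatty acid oxidation, had -1.12 (SE 0.43, adjusted p = 0.206), and Coq3, of coenzyme Q synthesis, -0.80 (SE 0.29, adjusted p = 0.199).

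Among inner and outer membrane carriers, 2 of 8 tested had a positive and 6 a negative log2 fold change (median -0.20). Ucp2, a carrier abundant in macrophages, had 340, 385 and 329 CPM in THBru, against 711, 580 and 571 CPM in HFD (-0.82, SE 0.25, adjusted p = 0.181), and the macrophage list took 0.0661%, 0.203% and 0.0405% of counts in THBru, against 0.376% to 0.810% in HFD. Ucp3 had 11.5, 22.7 and 3.13 CPM in THBru, against 31.0, 33.3 and 45.2 CPM in HFD (-1.55, SE 0.69, adjusted p = 0.241). Ndufa4l2, the low-oxygen relative of Ndufa4, had 2.24, 8.04 and 0.707 CPM in THBru, against 5.89, 5.20 and 10.3 CPM in HFD (-0.96, adjusted p = 0.521). The part of macrophage and adipocyte content in these values was not tested.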

How the data were processed

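White adipose tissue RNA of 3 THBru and 3 HFD samples was examined. Per the labels' protocols, Trizol RNA of RIN above 7 was poly(A) selected, its second cDNA strand marked with dUTP, and sequenced as paired reads. The deposited table holds raw gene counts, per the file headers, and FPKM values calculated by the authors. The submitters' processing notes name edgeR, DESeq2, StringTie 2.1.6, HISAT2 2.2.1 and cutadapt 1.9 without roles. What counted the reads, with which strand setting and on which build, is not given in the sources used here. All 97 member identifiers are in GENCODE M21, 85 with the same bounds, so coordinates were read as GRCm38. Processed copies and paralogs of subunit genes make single counts uncertain.

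Rows sharing a symbol were summed, 32819 rows to 32759 genes. Total counts were 67195085 to 76995679. The main test was edgeR 4.0.16 (R 4.3.3), quasi-likelihood, robust, TMM, two-sided, Benjamini-Hochberg over the 16140 genes whose FPKM averaged 0.5 or more, threshold 0.05, and its steps were tested on simulated data. SE of a log2 fold change was back-calculated from this test, as its absolute value over the square root of the F statistic. Alternatives were other scalings, DESeq2 1.42.0, limma 3.58.1 on log2(FPKM + 0.5), no filter, a replicate block and left-out libraries. The members, lists and tests were chosen with earlier results of these data known. Named genes are tissue isoforms with their partners, mitochondrial genes, the 5 smallest p-values in each direction, the highest and lowest FPKM of each complex and the 2 smallest p-values of each accompanying list, and Cycs, Ppargc1a and Ndufa4l2. Cox6c, Ndufa1, Ndufa6, the core subunits of complex I, Cyc1, Uqcrfs1 and others were added after their values were seen. Cox7b2 and Cyct were not analysed here, and 1 complex I subunit is counted but not reported by name. Intervals and limits of a count of 0 cover counting error only.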

Additional observations from a re-analysis of the deposited data

How the results depend on the processing

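The count of all genes past the threshold, 19, moved to 53 with total counts only, 2773 with DESeq2, 0 with the replicate block, 356 with THBru 2 alone, 7996 with mature adipocyte scaling, 0 without raised genes (those over 8-fold above the HFD mean and over 5 CPM in a THBru library), and 73, 118 and 56 with limma at pseudocounts of 0.5, 0.1 and 1. Leaving out 1 library gave 0 to 1552. Nuclear subunits called moved from 0 to 1 with DESeq2, to 24 with adipocyte scaling, and to 0 to 1 with 1 library left out (Cox7a2l, without THBru 2). Mitochondrial subunits called moved from 0 to 2 with adipocyte scaling. The nuclear median, -0.09, was 2.10 with adipocyte scaling and -0.26 to -0.23 with limma and -0.21 to 0.00 with 1 library left out. The mitochondrial median, 0.31, was 0.56 with THBru 2 alone, 2.47 with adipocyte scaling, 0.14 with limma at each pseudocount and 0.18 to 0.43 with 1 library left out.

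Of 380 log2 fold changes of 38 named subunits under DESeq2, the replicate block, left-out libraries, THBru 2 alone and limma at 0.5, 30 changed sign. In settings added after the data were seen, adipocyte scaling turned 14 of the 38 from negative to positive, total counts only and no filter changed the sign of 2 each, limma at 0.1 and 1 of 5 and 4, and DESeq2 size factors and leaving out raised genes of 0. With THBru 2 alone these were Cox4i2 (0.15), Atp5g3 (0.09), mt-Nd2 (0.20), Ndufa11 (-0.10), Sdha (0.24), Sdhb (0.26), Uqcr11 (-0.03), Atp5a1 (0.13) and Atp5md (0.01), and with limma at 0.5 Cox4i1 (-0.13), mt-Co1 (-0.11), Uqcrc2 (-0.03) and Uqcr11 (-0.16). With 1 library left out, the range was -0.09 to 0.11 for Cox4i1, -0.06 to 0.47 for Cox6b2, -0.26 to 0.01 for Cox7a2, -0.15 to 0.22 for mt-Co1, -0.37 to 0.03 for mt-Nd2, -0.02 to 0.37 for mt-Nd4, -0.28 to 0.04 for Sdha, -0.38 to 0.07 for Sdhb, -0.17 to 0.12 for Uqcr11 and -0.37 to 0.07 for Atp5md. The cause was not tested.

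The labels do not say whether replicate numbers shared between the groups pair the libraries. Correlations of their deviations from the group means were 0.0101, -0.00617 and -0.0473 for numbers 1 to 3. For unlike numbers they were -0.0348 to 0.0387. Transcripts of other organs in THBru enter these deviations, so the correlations cannot decide whether the libraries are paired. The replicate block called 0 nuclear and 0 mitochondrial subunits, with medians of -0.10 and 0.31. Counts of isoforms under 50 per library limit what can be said of Cox6a2, Cox8b, Cox7a1 and Cox8c, and 3 libraries a group, of which 2 THBru libraries are low in adipocyte markers, limit the rest.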
